A study of Mus musculus with 2 samples.

Results

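The genes described here form the Gs-cAMP arm that lies below the prostaglandin E2 receptor EP4: Gnas, Adcy6, Adcy9, Prkaca, Prkacb, Prkar1a, Creb1, Crem, Pde4b and Pde4d. They were chosen for their known place in this pathway, and their probes were found through the RefSeq accession of each probe. All 10 genes had probes, 30 of the 56593 probes used, and they are 10 of the 22909 genes that could be named on the array. Colon RNA of C57BL/6 mice of 2 genotypes was compared, on 1 array each. The control mice carried Villin-Cre alone, a transgene in which the Villin promoter drives Cre recombinase in the intestinal epithelium. The EP4 cKO mice carried Villin-Cre together with EP4flox/flox, so that Cre removes the floxed part of the EP4 gene Ptger4 in epithelial cells, while other cells of the colon keep it. Mice were 8 weeks old per the methods, the tissue was whole colon, and the labels say that 3 pools of colon tissue went into the RNA of each array, so that animals cannot be told apart. With 1 array per genotype no test was possible, no p-value is given, and every ratio describes this pair of arrays only.

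Gs is the G protein through which EP4 and many other receptors switch on adenylyl cyclases, which make cyclic AMP (cAMP) from ATP. In cells cAMP frees the catalytic subunits of protein kinase A (PKA) from its regulatory subunits, and PKA then phosphorylates its targets, among them the transcription factor CREB1. Phosphodiesterases of the PDE4 family break cAMP down and so end the signal. In the colon cAMP is best known for driving chloride, fluid and mucus secretion by the epithelium.

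The values are normalized signals, in which the processed intensity of each probe was scaled so that the trimmed mean of each array was 2500, and log2 ratios are EP4 cKO over Villin-Cre. The error printed after a log2 ratio is the error that the scanner software gave for the spots, carried to the ratio. It covers 1 hybridization and not the spread between mice. For bright probes this error was near 0.20 whatever the gene. Between spots of the probes with 10 spots, the median SD of the log2 ratio was smaller, at 0.034. A ratio smaller than the scanner error is therefore not shown to be absent. The targeted gene, Ptger4, had 2 probes. The brighter gave 6227 in Villin-Cre and 5661 in EP4 cKO, which is a log2 ratio of -0.14 ± 0.20. The dimmer gave 393 and 592, which is a log2 ratio of 0.59 ± 0.23. Neither probe of Ptger4 was lower by 2-fold in the sample labelled EP4 cKO, and all directions below rest on the labels. Whether the probes lie in the floxed part is not given in the sources used here. In RNA of whole tissue, fewer cells of a type and less RNA per cell cannot be told apart.

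None of the 9 genes with a value differed by more than 2-fold between the arrays. By its brightest probe, each of the 9 was measured well above background on both arrays, and Pde4b was dim on both, where dim means not well above background by the scanner software. The 9 log2 ratios ran from -0.75 for Pde4d to 0.48 for Prkacb, with a median of -0.07. The median of all 14679 genes measured was -0.10, and past 2-fold 4.86% of them were higher on the EP4 cKO array and 7.87% lower. The 12816 genes measured on both arrays, as all 9 were, had a median of -0.15, with 4.03% higher and 6.23% lower. At a threshold of 1.5-fold, 2 of the 9 genes (Adcy9 and Pde4d) were lower and none was higher, against 18.6% lower and 9.84% higher among all genes. Of the 30 probes, 21 were well above background on both arrays, 2 in EP4 cKO alone and 7 in neither sample, as the plot of the signals of every probe shows. Among the 21 probes, 2 were more than 2-fold lower and 4 more than 1.5-fold lower, and none was higher by 1.5-fold. Of all 24734 probes measured on both arrays, 6.61% were lower and 3.18% higher by more than 2-fold, and 20% lower and 7.77% higher by more than 1.5-fold.

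**Figure D1:**
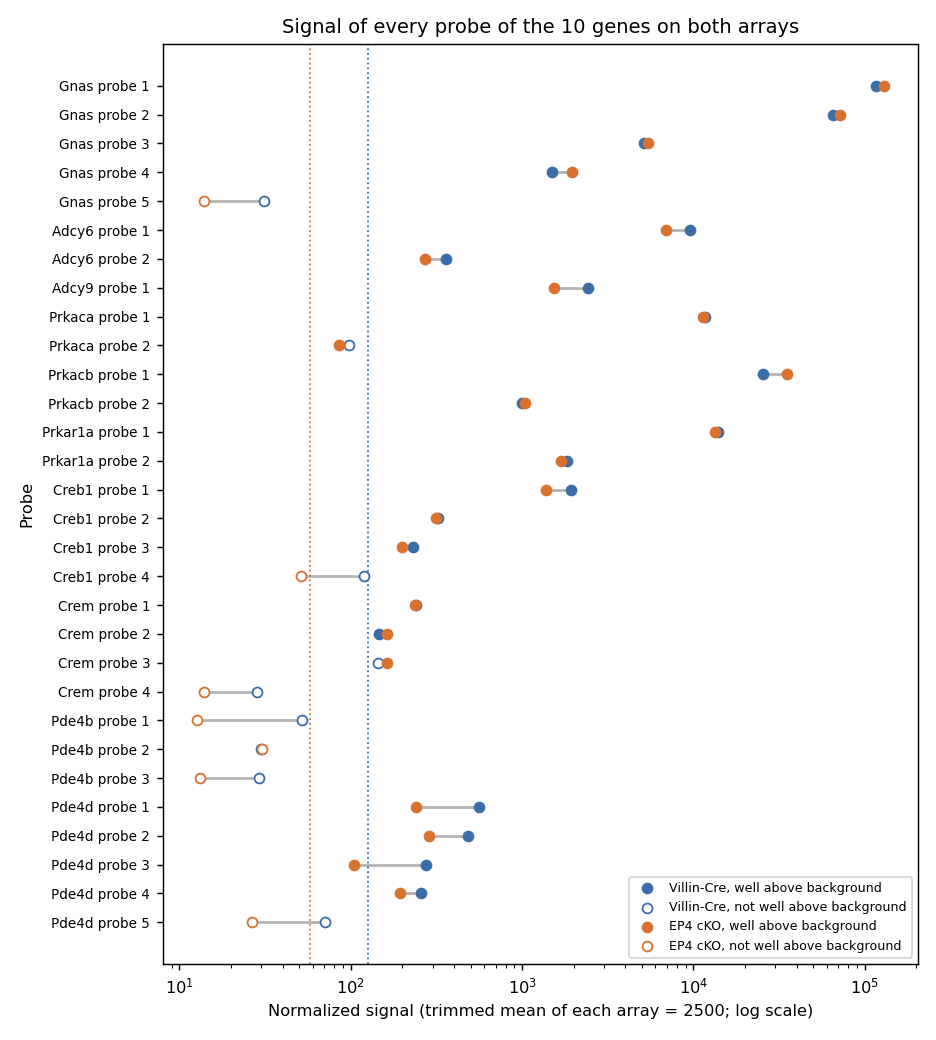
Normalized signal (x axis, log scale) of each of the 30 probes of the 10 genes (y axis, probes numbered from the brightest on the Villin-Cre array) on the Villin-Cre array (blue) and the EP4 cKO array (orange); open points are not well above background, and dotted lines mark the lowest signal well above background on each array (125 and 57.8). The measured probes of Prkaca and Prkar1a nearly overlap on the 2 arrays, the 4 measured probes of Pde4d are all lower in EP4 cKO, and all 3 probes of Pde4b are open.

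Gnas encodes the alpha subunit of Gs, the first step after the receptor, and its imprinted locus gives several transcripts from different promoters. Its brightest probe had a signal of 115649 in Villin-Cre and 129520 in EP4 cKO, a log2 ratio of 0.16 ± 0.20. A second bright probe of the same RefSeq transcript gave 64792 and 71726, a log2 ratio of 0.15 ± 0.20. The other 2 measured probes, which were designed to other transcripts of the locus, gave log2 ratios of 0.08 ± 0.20 (5130 and 5416) and 0.38 ± 0.21 (1499 and 1951). All 4 ratios were above 0, under every scaling tried, and 3 of them were smaller than the scanner error. The last Gnas probe was dim on both arrays. Gnas was thus present at a high signal in both genotypes, with a difference of 1.12-fold by its brightest probe.

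Adcy6 and Adcy9 encode adenylyl cyclases of the plasma membrane, and both had lower signals on the EP4 cKO array. Adcy6 went from 9545 to 6913 by its brighter probe, a log2 ratio of -0.47 ± 0.20, and from 358 to 272 by its dimmer probe, a log2 ratio of -0.40 ± 0.24. Adcy9 had a single probe, which went from 2434 to 1534, a log2 ratio of -0.67 ± 0.21 or 1.59-fold lower. These differences exceeded the scanner error but stayed within 2-fold, and the middle 80% of genes of like signal to Adcy9 spanned log2 ratios from -0.79 to 0.55 around a median of -0.17. The direction of both genes was the same under every setting tried, except with scaling to the E1A control spots. That setting shifted the log2 ratio of single genes upward by a median of 1.04 and gave 0.57 for Adcy6 and 0.37 for Adcy9, both below the median of all genes of 0.87 under it.

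**Figure D2:**
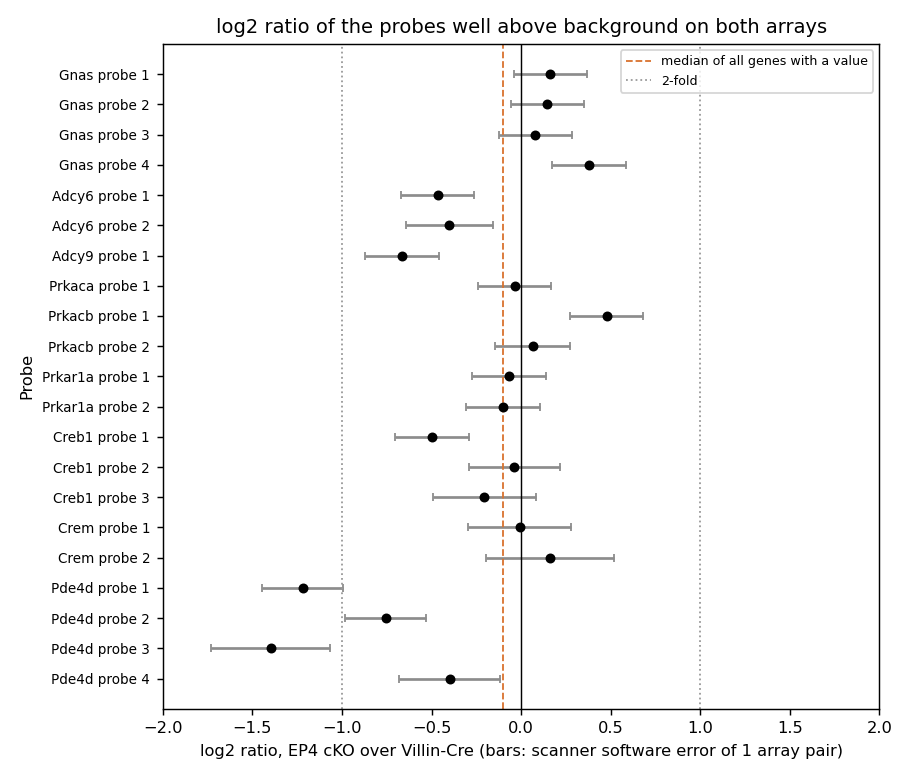
log2 ratio of EP4 cKO over Villin-Cre (x axis) for the 21 probes of the genes that were well above background on both arrays (y axis); bars are the scanner software's error for this pair of arrays, the dashed line is the median of all genes (-0.10) and dotted lines mark 2-fold. Only 2 probes, both of Pde4d, lie beyond 2-fold, and those of Adcy6, Adcy9 and Pde4d all lie below 0.

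Of the 3 PKA genes among the 10, Prkaca and Prkar1a differed by less than the scanner error, and Prkacb by more with its brighter probe only. Prkaca, which encodes the catalytic subunit alpha, had 11618 and 11339 by its brighter probe, a log2 ratio of -0.04 ± 0.20. Its dimmer probe was well above background on the EP4 cKO array only (98.2 and 85.6) and gave no fold above 1. Prkacb, which encodes the catalytic subunit beta, had 25294 and 35205 by its brighter probe, a log2 ratio of 0.48 ± 0.20 or 1.39-fold higher, but 999 and 1045 by its dimmer probe, a log2 ratio of 0.06 ± 0.21. The 2 probes of Prkacb agreed in sign and not in size, so that the 1.39-fold rests on 1 probe. Prkar1a, which encodes the regulatory subunit that holds the kinase inactive in its type I form, had 13921 and 13279, a log2 ratio of -0.07 ± 0.20, and 1818 and 1696 by its dimmer probe, a log2 ratio of -0.10 ± 0.21. The sign of Prkaca and Prkar1a turned with the scaling. With the 75th percentile both were above 0, at 0.12 and 0.089.

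Creb1 and Crem encode related factors that bind the cAMP response element in DNA, and PKA phosphorylates both. The Crem gene also gives a short repressor from an internal promoter. The brightest Creb1 probe went from 1937 to 1373, a log2 ratio of -0.50 ± 0.21. Its dimmer probes gave -0.04 ± 0.25 (321 and 313) and -0.20 ± 0.29 (231 and 200), both smaller than the scanner error. These 2 dimmer probes were above 0 after loess on mean signal, at 0.23 and 0.08, while the brightest stayed below 0 at -0.34. The difference in Creb1 thus rests on its brightest probe. Crem had low signals on both arrays. Its probes gave 239 and 238, a log2 ratio of -0.01 ± 0.29, then 146 and 164, a log2 ratio of 0.16 ± 0.36, and 144 and 164 for a probe well above background on the EP4 cKO array only, a log2 ratio of at least 0.18. No difference in Crem exceeded the scanner error, and the sign of its brightest probe turned with the scaling (0.15 with the 75th percentile).

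Pde4d had the lowest log2 ratio of the 9 genes (after loess Adcy9 was lower, at -0.52 against -0.49), and Pde4b, the other phosphodiesterase of the set, was not well above background. Both encode enzymes specific for cAMP, and each gene gives long and short forms from several promoters. All 4 measured Pde4d probes were lower on the EP4 cKO array. The probe with the highest mean log2 signal, which stands for the gene, went from 480 to 285, a log2 ratio of -0.75 ± 0.23 or 1.69-fold lower. A probe with a higher signal on the Villin-Cre array went from 561 to 241, a log2 ratio of -1.22 ± 0.23, so that the choice of probe decides whether Pde4d is within 2-fold. The other probes went from 276 to 105, a log2 ratio of -1.40 ± 0.33, and from 257 to 195, a log2 ratio of -0.40 ± 0.28. Thus 2 of the 4 probes were more than 2-fold lower and 2 were not, beside 6.61% of all probes measured on both arrays. Genes of like signal to Pde4d had a median of -0.25, and 10% of them lay below -1.13. After loess, 1 of the 4 probes stayed more than 2-fold lower (-1.12), and after normexp with quantile normalization none did (the lowest was -0.64). With scaling to the E1A control spots 2 probes were above 0, at 0.28 and 0.64. The probes of Pde4b had signals of 51.9, 29.9 and 29.0 in Villin-Cre and 12.7, 30.3 and 13.1 in EP4 cKO. All were under the lowest signal well above background (125 and 57.8), so that no fold can be given.

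**Figure D3:**
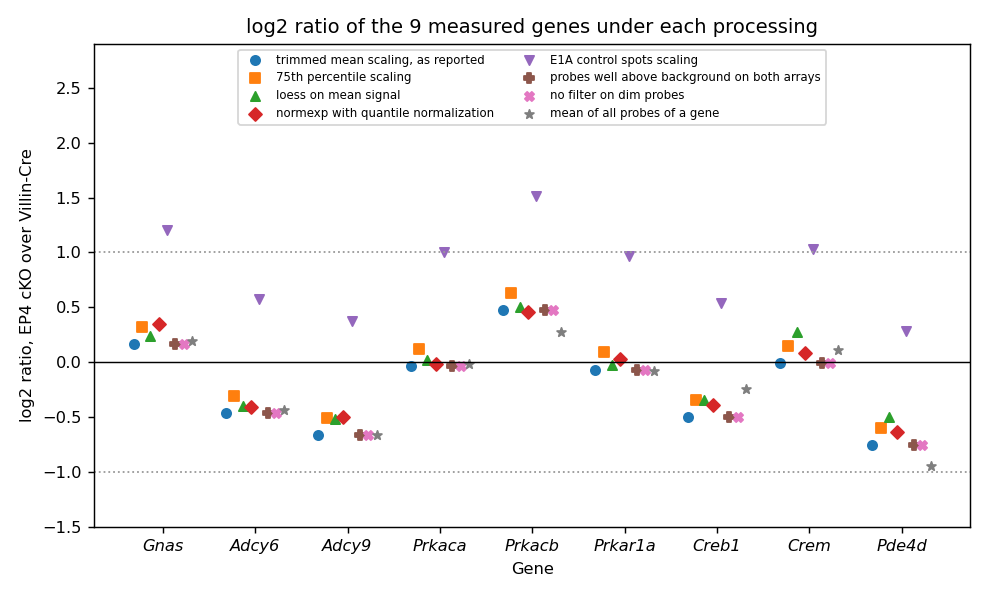
log2 ratio of EP4 cKO over Villin-Cre (y axis) for the 9 measured genes (x axis) under the reported processing (circles) and 7 alternatives (other symbols); dotted lines mark 2-fold. Gnas and Prkacb lie above 0 in every setting, and Adcy6, Adcy9, Creb1 and Pde4d lie below 0 in every setting except scaling to the E1A control spots, which puts all 9 genes above 0.

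The cAMP response element that CREB1 and CREM bind has the letters TGACGTCA, which read the same on both strands. These letters were looked for in the RefSeq promoter windows of the build GRCm38.p6, which run from 250 bases before to 50 bases after each gene start. Entries were found for 8 of the 10 genes (not for Adcy6 and Crem), with 22 windows. The element was present in 1.79% of all 32851 windows. Among the 10 genes it was found in Prkar1a only, where 2 of 6 windows, of overlapping starts, held the same copy. Among 17 genes with a window from a list of 25 genes known to respond to cAMP through CREB, it was found in Btg2, Dusp1 and Areg. Among 152 windows of 100 other cAMP pathway genes, 2 (1.32%) held it, those of Creb5 and Rap1b. The 5-letter core TGACG, which is part of the element, was found on either strand in 20.8% of all windows, in 10 of the 22 windows of the 10 genes (6 genes), in 17 of 27 windows of the CREB target genes, and in 23% of those of the other pathway genes. The sequences below show these elements in the DNA, 5′ to 3′ on the strand of the gene, with the element in capitals. The Prkar1a sequence lies at chr11:109650889-109650918 (plus strand), the element starting 49 bases before 1 start of the gene and at position 39 after another. The others lie at chr1:134079303-134079332 (minus strand, the element starting 166 bases before Btg2), chr17:26508597-26508626 (minus strand, 143 before Dusp1) and chr5:91139527-91139556 (plus strand, 61 before Areg).
Prkar1a: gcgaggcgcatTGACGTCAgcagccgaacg
Btg2: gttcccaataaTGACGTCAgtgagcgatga
Dusp1: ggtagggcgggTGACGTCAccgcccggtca
Areg: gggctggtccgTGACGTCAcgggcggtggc
These 4 genes differed in direction between the arrays. Btg2, which restrains cell division, went from 13480 to 8410, a log2 ratio of -0.68 ± 0.20, and Dusp1, a phosphatase that turns off MAP kinases, from 17684 to 11503, a log2 ratio of -0.62 ± 0.20. Areg, which encodes the EGF receptor ligand amphiregulin, went from 2026 to 2971, a log2 ratio of 0.55 ± 0.20, and Prkar1a was level as given above. None was beyond 2-fold.

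Around these 10 genes, 131 further gene symbols of cAMP signaling were listed by role, among them Adrbk1 and Adrbk2, older symbols of the listed genes Grk2 and Grk3. Of the 126 found on the array, 88 had a value. Of the 88, 78 were measured on both arrays. Past 2-fold, 1 of the 78 was higher on the EP4 cKO array and 8 (10.3%) were lower, beside 4.03% and 6.23% of all 12816 genes measured on both arrays, and their median log2 ratio was -0.15, as for those genes (-0.15). A further 3 genes (Gpr119, Adcy5 and Pde11a) were above background in Villin-Cre alone and had a value through that array only, which makes 11 of the 88 lower (12.5%, beside 7.87% of all genes with a value). The plot of the pathway lists shows each gene. Of 8 other Gs-coupled receptors measured on both arrays, 2 were lower and none was higher. Vipr2, a receptor for vasoactive intestinal peptide, went from 174 to 66.9, a log2 ratio of -1.38. This ratio was -0.27 after normexp with quantile normalization and -0.34 with scaling to the E1A control spots. The serotonin receptor gene Htr4 went from 2992 to 1484 (-1.01). The ratio of Htr4 was within 2-fold with the 75th percentile (-0.85), loess (-0.87), normexp with quantile normalization (-0.83) and the mean of its probes (-0.73), and it was 0.026 with scaling to the E1A control spots. Its dimmer probe gave -0.45. Gpr119, a lipid receptor of enteroendocrine cells that was singled out after its value was seen, had a signal of 1020 in Villin-Cre and was dim in EP4 cKO, at least 17.6-fold lower. Vipr1, the other receptor gene for this peptide, had 117239 and 116307 by its brighter probe (-0.01) and 1479 and 2304 by its dimmer probe (0.64). Other receptors for prostaglandins that act through Gs (Ptger2, Ptgir and Ptgdr) were dim on both arrays.

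Of 20 genes for other G protein subunits, receptor kinases and arrestins, all measured on both arrays, 2 (10%) were lower and none was higher. Of all genes measured on both arrays, 6.23% were lower and 4.03% higher. Arrb1, which encodes a beta-arrestin that uncouples receptors from G proteins, went from 12059 to 4971 (-1.28), while Arrb2, which encodes the other one, gave 0.02 and 0.14 by its probes. Gnai1, an alpha subunit that inhibits adenylyl cyclases, went from 912 to 437 (-1.06). The log2 ratio of Arrb1 was within 2-fold only with scaling to the E1A control spots (-0.24). That of Gnai1 was within 2-fold under other scalings too (-0.90 with the 75th percentile). The other inhibitory subunits, Gnai2 (0.38) and Gnai3 (0.59), did not share this direction. Of the other adenylyl cyclases, Adcy5, Adcy7, Adcy4 and Adcy8 were each well above background on 1 array only. Adcy5, singled out after its value was seen, was so in Villin-Cre (177 and 57.2) and was at least 3.06-fold lower. This bound takes 57.8 for EP4 cKO, while the lowest signal well above background in Villin-Cre was 125. Adcy7 (105 and 163), Adcy4 (27.1 and 102) and Adcy8 (30.6 and 72.2) were so in EP4 cKO. The log2 ratio of Adcy7 was at least 0.38, and Adcy4 and Adcy8 gave no fold above 1. The brightest gene of that list, Cap1, encodes a cyclase-associated protein that acts on actin (0.26).

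Among the 7 other PKA genes 2 (28.6%) were more than 2-fold lower, beside 7.87% of all genes. The type I and type II regulatory subunits of the beta kind were lower and those of the alpha kind were within 2-fold. Prkar2b went from 1640 to 519, a log2 ratio of -1.66 ± 0.21, and Prkar1b from 188 to 65.5, a log2 ratio of -1.52 ± 0.40. Prkar2a had 20013 and 22705 (0.18), beside Prkar1a as given above. Both ratios kept their sign under every setting tried. That of Prkar2b was within 2-fold only with scaling to the E1A control spots (-0.62), and that of Prkar1b, a gene of low signal, also after normexp with quantile normalization (-0.36). The inhibitor genes Pkig (-0.20) and Pkib (-0.14) and the related kinase gene Prkx (0.58) were within 2-fold. None of 11 genes for A-kinase anchoring proteins, which tether PKA to places in the cell, was beyond 2-fold. All 11 were measured on both arrays, and 4.03% of all such genes were higher and 6.23% lower. The brightest of them was Akap7 (88349 and 102072, a log2 ratio of 0.21).

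Of 17 other genes for CREB family factors, coactivators and SIK kinases, 1 (5.88%) was higher and none was lower, beside 4.86% and 7.87% of all genes. Creb3l3 encodes a factor held in the membrane of the endoplasmic reticulum of liver and gut cells and released by cleavage. It went from 274 to 16208, 59.1-fold higher or a log2 ratio of 5.88 ± 0.24 by its single probe, and from 5.23 to 6.92 under the other settings tried. Genes for CREB coactivators were within 2-fold. Crebbp gave 0.49 by its brighter and -0.16 by its dimmer probe, and Crtc1, Crtc2 and Crtc3 gave -0.66, -0.23 and -0.48. Of 8 other phosphodiesterases for cAMP measured on both arrays, 1 (12.5%, beside 6.23% of all such genes) was lower and none was higher. It was Pde7a, both measured probes of which were lower (4682 to 1906 and 429 to 165, log2 ratios of -1.30 and -1.38). The ratio of Pde7a was within 2-fold only with scaling to the E1A control spots (-0.26). Pde11a, singled out after its value was seen, had a signal of 2411 in Villin-Cre and was dim in EP4 cKO, at least 41.7-fold lower by its single probe. Pde4a (-0.97) lay just within 2-fold and Pde4c, the brightest, had 174597 and 138936 (-0.33). Among EPAC and other cAMP effectors, all 8 genes with a value were measured on both arrays. Of these, none was more than 2-fold higher (beside 4.03% of all such genes) and 1 (12.5%, beside 6.23%) was lower. The lower gene was Rap2a, a small GTPase related to Rap1, with 7516 and 2794 (-1.43). Its ratio was within 2-fold only with scaling to the E1A control spots (-0.39). Rapgef3, which encodes the cAMP-gated exchange factor EPAC1, had a log2 ratio of 0.36.

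**Figure D4:**
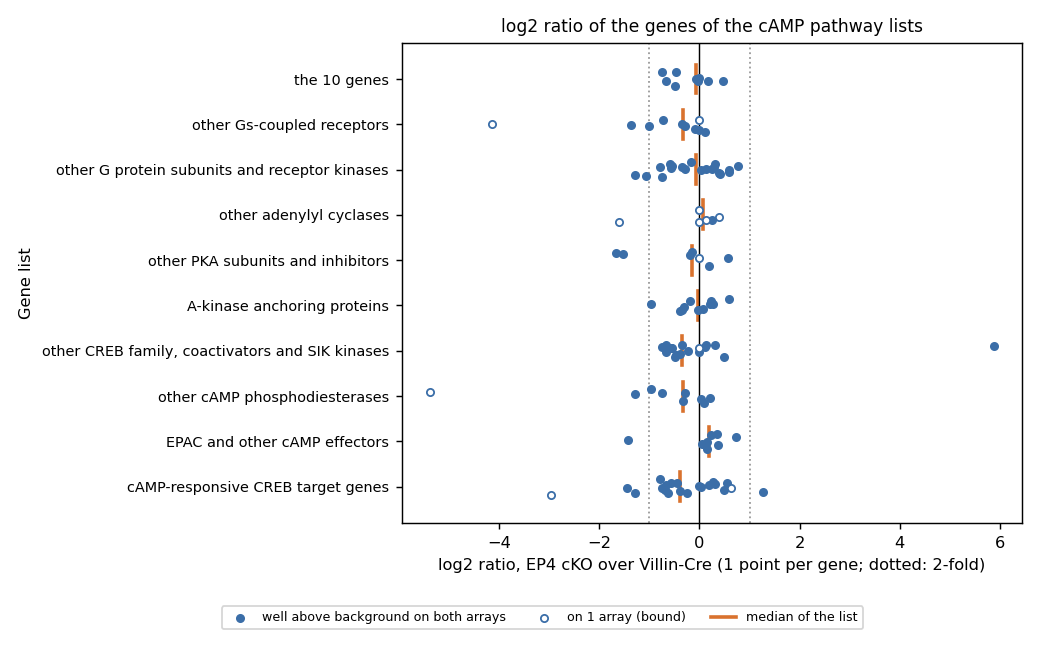
log2 ratio of EP4 cKO over Villin-Cre (x axis) for each gene with a value in the cAMP pathway lists and in the list of CREB target genes (y axis); open points are bounds from genes well above background on 1 array only, orange bars are list medians and dotted lines mark 2-fold. The 9 genes with a value of the 10 lie within 2-fold, the far points on the left are Pde11a, Gpr119 and Thbd, and the far point on the right is Creb3l3.

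Among genes known to respond to cAMP through CREB, 21 of 25 had a value. They include Crem and Pde4d of the 10 genes above, and Sik1 and Rgs2 of the further pathway genes. Of the 19 measured on both arrays, 2 (10.5%) were lower and 1 was higher past 2-fold, beside 6.23% and 4.03% of all such genes. With Thbd, which had a value through the Villin-Cre array only, 3 of the 21 were lower. The median log2 ratio of the list was -0.39, beside -0.10 for all genes. The lower genes measured on both arrays were the orphan nuclear receptor genes Nr4a2 (673 and 246) and Nr4a1 (12990 and 5330), with log2 ratios of -1.45 ± 0.22 and -1.29 ± 0.20. After normexp with quantile normalization Nr4a2 was within 2-fold (-0.92). With scaling to the E1A control spots both Nr4a2 (-0.42) and Nr4a1 (-0.25) were. Thbd, which encodes thrombomodulin and was singled out after its value was seen, was at least 7.85-fold lower. The higher gene was the clock gene Per1 (5799 and 13896), with a log2 ratio of 1.26 ± 0.20. At 1.5-fold, 8 of the 21 were lower and 2 were higher, beside 18.6% and 9.84% of all genes. The lower share was thus above that of all genes, and the higher share was near it. Thbd among the lower and Dusp4 among the higher genes had a value through 1 array only. Other signals than cAMP also act on most genes of this list.

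Marker genes of the cell types in the colon were listed to see which of them differed along with the cAMP genes. All 10 epithelial markers were well above background on both arrays, with a summed signal of 2778062 in Villin-Cre and 3334728 in EP4 cKO, 1 was more than 2-fold higher (Krt20, 1.80) and none was lower. Of 10 fibroblast markers, 5 were measured on both arrays, with 3 of them more than 2-fold lower, 2 above 0 and a median of -1.09, beside 6.23% of all such genes lower and 4.03% higher. Another 4 (Col1a1, Col3a1, Lum and Col6a1) were above background in Villin-Cre alone, and the summed signal of the list went from 16463 to 4385. Dcn (-5.77) and Col1a2 (-5.03) were the lowest of those measured on both arrays, while Fn1 (0.98) and Thy1 (0.29) were above 0, and 5 of the 10 markers were dim in EP4 cKO. Of 10 smooth muscle markers, 7 had a value, with a median of 0.38. Past 2-fold, 1 (14.3%) was lower and none was higher, beside 7.87% and 4.86% of all genes. It was Cnn1 (-2.73, and -1.04 after normexp with quantile normalization). At 1.5-fold, 3 were higher (Mylk, Actg2 and Acta2) and 2 were lower (Cnn1 and Smtn), beside 9.84% and 18.6% of all genes. Of 12 leukocyte markers, 8 had a value, with a median of 0.24, 4 ratios above 0 and 3 below it. Past 2-fold, 2 of them (25%) were higher and none was lower, beside 4.86% and 7.87% of all genes. The higher ones were Nkg7 (1.42) and Cd3g (1.28, and 0.87 after normexp with quantile normalization), and the lowest was Csf1r (-0.79). Cd3e, which was brighter than Cd3g, gave -0.10 by its brighter and -0.79 by its dimmer probe. Only 2 of 6 endothelial markers and 2 of 7 neuron and glia markers had a value (Vwf, 0.07; Uchl1, -1.43). The part of these differences in the ratios of the cAMP genes was not tested.

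**Figure D5:**
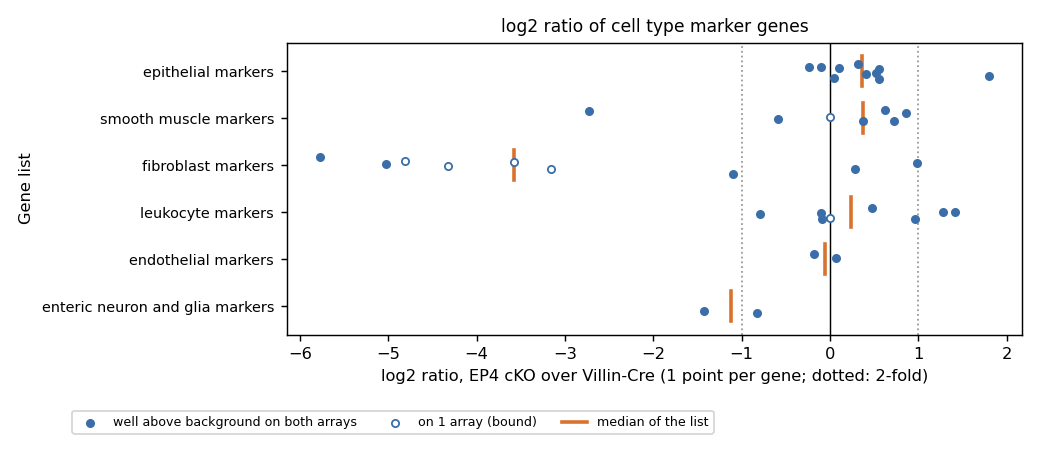
log2 ratio of EP4 cKO over Villin-Cre (x axis) for each marker gene with a value in the 6 cell type lists (y axis); open points are bounds from genes well above background on 1 array only, orange bars are list medians and dotted lines mark 2-fold. The fibroblast list has 3 genes measured on both arrays and 4 bounds more than 2-fold lower, while 9 of 10 epithelial markers lie within 2-fold.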

How the data were processed

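The authors deposited the scanner output of 2 Agilent mouse arrays of 1 colour (Cy3), made with Feature Extraction 12.0.3.1 per the file headers; the labels name 11.5.1.1. The deposited intensity values used are the processed signals, from which the authors' scanner software had subtracted the background and removed spatial trends, per the file headers, and they were not normalized between arrays. Control spots and outlier spots were left out, spots of a probe were averaged, and each array was scaled to a mean of 2500 after trimming 2% at each end, as in the methods (factors 3.45 for Villin-Cre and 2.68 for EP4 cKO). The methods' threshold of 2-fold was used. A probe well above background on 1 array only was given a bound, its dim side held at the lowest signal well above background (125 and 57.8) or its own if higher, and a log2 ratio of 0 was entered where the bound gave no fold above 1. Each gene took the value of 1 probe, that of highest mean log2 signal among those well above background on at least 1 array. Probes below that level are called dim. No spot was saturated, and 45.4% (Villin-Cre) and 51.6% (EP4 cKO) of probes were well above background. The number of arrays limits the precision. Over 163 probes with 10 spots, the median SD of the log2 ratio between spots was 0.034.

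Accessions were matched without version to RefSeq genes of GRCm38.p6, and 58.3% of probes matched. No probe of 5 listed symbols (Hrh2, Adrbk1, Adrbk2, Akap2 and Atf7) was found under that name. The 10 genes and all lists were chosen with earlier results of these data known. Named in the text are the 10 genes, Ptger4, and, per list, the largest 2 changes each way past 2-fold among genes well above background on both arrays, or else the brightest gene. Other genes named were chosen after their values were seen. The alternatives were scaling to the 75th percentile or to 7 E1A control probes, loess on mean signal (span 0.3), normexp (offset 50, on the median signal of each spot) with quantile normalization, use of only the probes measured on both arrays, use of dim probes as well, averaging the probes of each gene, and thresholds of 1.5-fold and 3-fold. The steps were tested on simulated data. Python 3.11.15 (numpy 2.4.6, pandas 2.3.3, statsmodels 0.14.6, matplotlib 3.10.9) was used, and limma 3.58.1 ran in R 4.3.3.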

Additional observations from a re-analysis of the deposited data

How the results depend on the processing

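With 1 array per genotype no array could be left out. No paired analysis was possible because each genotype had 1 array. None of the 9 genes with a value was more than 2-fold lower under any scaling, filter or probe rule tried, and none was more than 2-fold higher except with scaling to the E1A control spots (4 genes: Gnas, Prkaca, Prkacb and Crem); at 1.5-fold, 2 were lower. That scaling shifted the ratios of single genes by a median of 1.04. The median of these 9 genes, -0.07, became 0.089 with the 75th percentile, -0.024 after loess, -0.02 after normexp with quantile normalization and 0.97 with the E1A spots, under which all genes had medians of 0.00, 0.00, 0.00 and 0.87. The 1 further pathway gene more than 2-fold higher became 39 with the E1A spots, 3 with no filter on dim probes and 6 at 1.5-fold. The 11 more than 2-fold lower became 6 after normexp with quantile normalization, 2 with the E1A spots, 42 with no filter on dim probes, 21 at 1.5-fold and 4 at 3-fold. The 3 CREB target genes more than 2-fold lower became 1 with the E1A spots, 8 at 1.5-fold and 1 at 3-fold. Htr4 turned from -1.01 to 0.026 with the E1A spots. Beyond the shift that each scaling applies to all genes and the change of threshold or filter itself, the cause was not tested. Probes not well above background give no fold, which leaves Pde4b without one.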
